A study of Mus musculus with 11 samples.

Results

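The transcriptional targets of canonical Wnt signalling examined here are 10 genes that β-catenin induces in many tissues and that serve as a readout of Wnt activity: Axin2, Lef1, Nkd1, Nkd2, Notum, Znrf3, Rnf43, Sp5, Tcf7 and Lgr5. They were found by gene symbol among 48709 mouse genes, and all 10 had a row in the deposited counts, 6 of them also in the deposited normalized table. In this pathway a secreted Wnt ligand binds a Frizzled receptor with an Lrp5 or Lrp6 co-receptor, which stops a complex of Axin, Apc and the kinase Gsk3 from marking β-catenin for degradation. Stabilized β-catenin then enters the nucleus and activates genes together with TCF/LEF transcription factors. Most of the 10 targets feed back on the pathway, so their transcript levels are widely read as a record of recent signalling; in blood vessels Wnt signalling is known chiefly for its part in the endothelium and in vessel growth.

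Total RNA of the aortic arch, taken from 11 mice at postnatal day 11, was measured by bulk RNA-seq. Het mice (Het 1 to 6, n = 6) carried 1 Tgfbr2 allele with the G357W substitution and model Loeys-Dietz syndrome type II, a connective tissue disorder with aortic aneurysms. Their wild-type littermates (WT 1 to 5, n = 5) carried none, and no treatment is given for either group. As cell type, the labels give VSMC and EC, short for smooth muscle and endothelium of vessels. The 7 smooth muscle markers summed to 30456 to 41475 CPM (counts scaled by library size) in Het and 33587 to 38102 CPM in WT. Most of it came from Acta2 (23305 to 32199 CPM in Het and 25717 to 28374 CPM in WT). Of these 7 only Cnn1 passed an adjusted p of 0.05, lower in Het (log2 fold change -0.51, adjusted p = 0.0346 by edgeR's quasi-likelihood test). Over all genes tested, 2.38 percent passed as lower in Het. The 8 endothelial markers summed to 334 to 538 CPM in Het and 360 to 490 CPM in WT, most of it from Pecam1 (202 to 336 CPM in Het and 229 to 343 CPM in WT), while Cdh5 was at 4.21 to 11.5 CPM in Het and 4.63 to 8.78 CPM in WT. Markers of other cells were also found. The 7 adventitial fibroblast markers summed to 7270 to 12790 CPM in Het and 5780 to 10977 CPM in WT. Most of this sum came from Col1a1 (5751 to 11178 CPM in Het and 3795 to 9319 CPM in WT). Dcn was at 529 to 966 CPM in Het and 441 to 912 CPM in WT. Pdgfra was at 29.0 to 46.4 CPM in Het and 25.7 to 40.3 CPM in WT. Which cells the Col1a1 RNA came from was not tested, so the sum does not measure fibroblast content. The 6 fat markers summed to 322 to 2065 CPM in Het and 759 to 2765 CPM in WT.

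The libraries held 13113467 to 19327935 counts. Tgfbr2, the targeted gene, was at 39.0 ± 8.22 CPM in Het (SD, n = 6) and 41.3 ± 4.29 CPM in WT (SD, n = 5), with a log2 fold change of -0.085 ± 0.13 (SE, adjusted p = 0.789 by edgeR's quasi-likelihood test). Counts per gene do not separate the alleles, so this does not check the genotype labels. Xist was at 58.4 to 78.6 CPM in Het 1, Het 2 and all 5 WT libraries and at most 0.735 CPM in Het 3 to 6, where the Y-linked gene Ddx3y was at 86.4 to 110.5 CPM and elsewhere at 0; genotype and sex are therefore partly confounded. Het 3 and Het 6 held the most RNA of thymocyte and T cell markers, and WT 1 and WT 2 lay apart from the other libraries on the first principal component.

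None of the Wnt targets passed an adjusted p of 0.05 between Het and WT. Of the 10, 6 had enough counts for the test (Znrf3, Nkd1, Tcf7, Axin2, Nkd2 and Lgr5), 0 of these 6 were called by edgeR's quasi-likelihood test, and 4 were at or near the floor of detection. Over all 14757 genes tested, 5.03 percent were called, with 391 genes (2.65 percent) higher and 351 genes (2.38 percent) lower in Het. At an unadjusted p under 0.05 there was 1 target, Znrf3, where 19.4 percent of all genes tested fell under that value. DESeq2, limma voom and limma trend on the deposited CPM also called 0 of the targets. The log2 fold changes of the 6 pointed both ways, 2 above and 4 below 0, with a median of -0.152, against -0.0046 over all genes tested. In bulk RNA a lower level can come from fewer cells that express a gene or from less RNA per cell, and these cannot be told apart here.

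**Figure D1:**
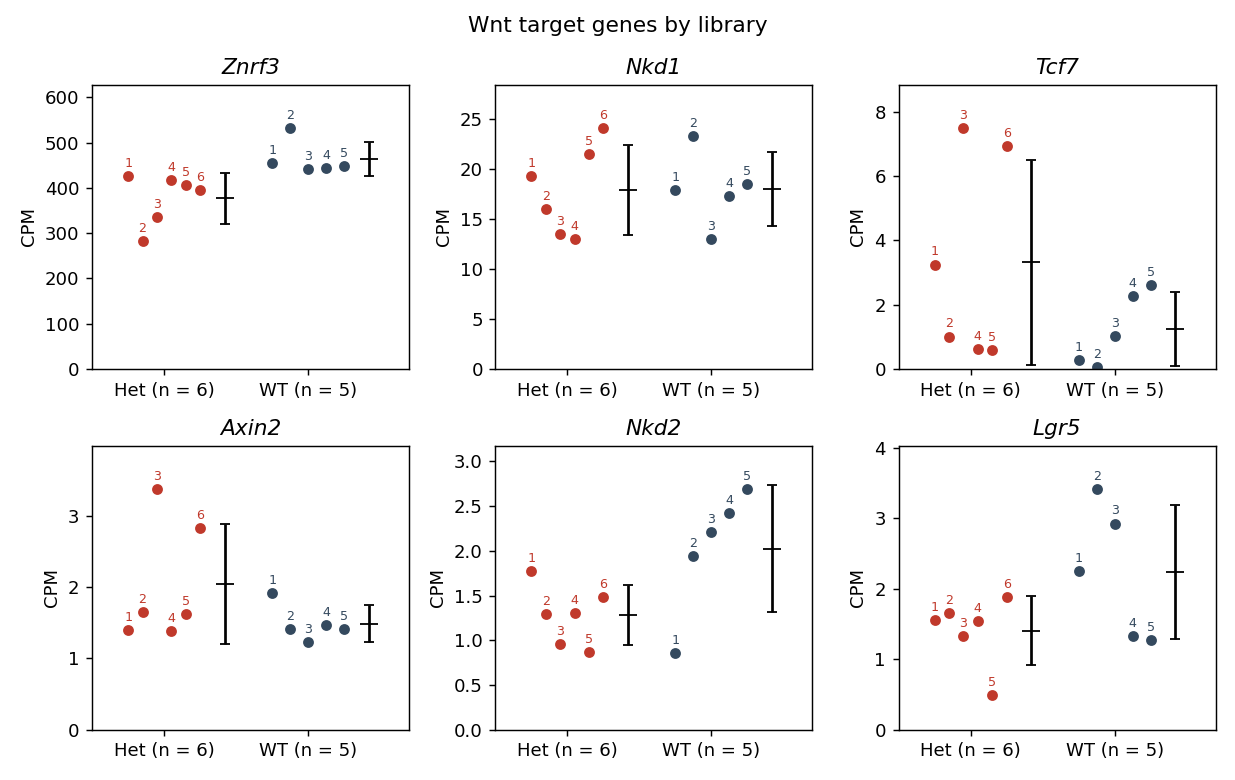
CPM of the 6 tested Wnt target genes in each library, Het left of WT; the points carry the replicate number and the bars beside them give the mean ± SD (n = 6 Het, n = 5 WT). Znrf3 is lower in every Het library than in any WT library, and the high Tcf7 and Axin2 values belong to Het 3 and Het 6.

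Levels spanned several orders of magnitude. Divided by the summed exon length of each gene, Znrf3 averaged 47.7 ± 7.11 CPM per kb in Het (SD, n = 6) and 58.8 ± 4.84 in WT (SD, n = 5), above 93.1 percent of all genes tested. Nkd1 came next with 3.92 ± 0.982 CPM per kb in Het and 3.95 ± 0.807 in WT. Tcf7 followed with 1.26 ± 1.21 CPM per kb in Het and 0.476 ± 0.44 in WT. Axin2, at 0.372 CPM per kb in Het and 0.271 in WT, lay above 6.9 percent of the genes tested. Nkd2, at 0.265 CPM per kb in Het and 0.42 in WT, lay above 7.2 percent of them, and Lgr5, at 0.137 in Het and 0.218 in WT, above 2.1 percent. In both groups the range of Znrf3 lay clear of that of Nkd1, and that of Lgr5 clear of that of Lef1. Nkd1 overlapped Tcf7 in range in Het but not in WT. In the order of levels, neighbours among Tcf7, Axin2, Nkd2 and Lgr5 overlapped in range in both groups, as did neighbours among Lef1, Rnf43 and Notum.

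**Figure D2:**
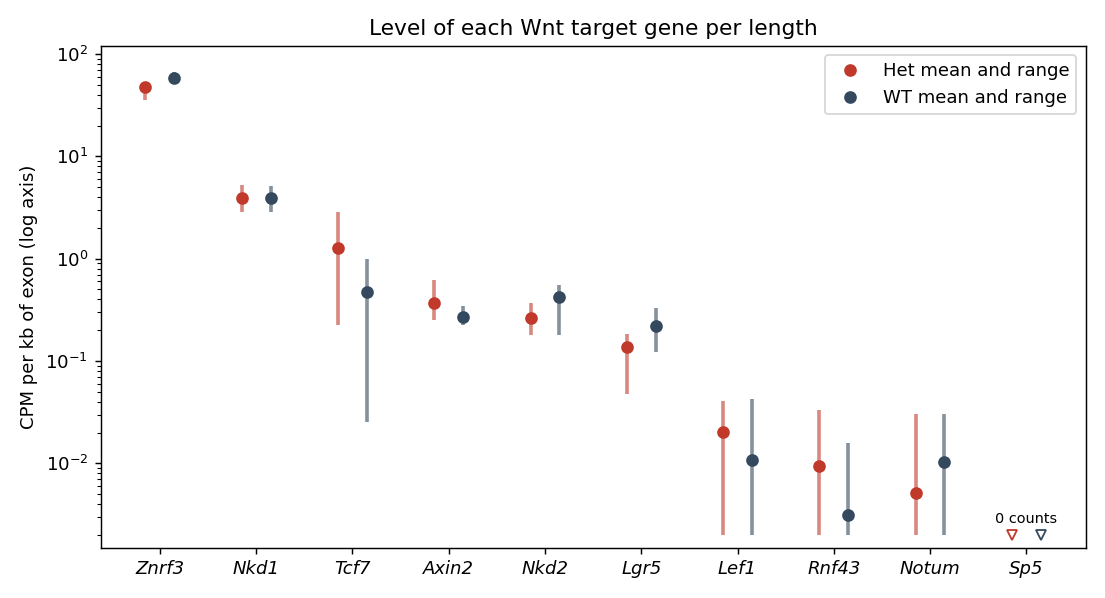
Level of each of the 10 Wnt target genes in CPM per kb of exon on a log axis, with the mean (point) and range (line) over 6 Het and 5 WT libraries; a line that reaches the bottom includes libraries with 0 counts, and open triangles mark Sp5, which had 0 counts. Znrf3 stands above the others, and Lef1, Rnf43, Notum and Sp5 lie lowest in both groups.

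The transcription factors among the targets were either near the floor or carried by a few libraries. Tcf7 (ENSMUSG00000000782, chr11:52252371-52283014, minus strand, GRCm38) encodes TCF1, a TCF/LEF factor that is itself a Wnt target and is strongly expressed in developing T cells. It was at 3.25, 1.01, 7.49, 0.615, 0.596 and 6.95 CPM in Het 1 to 6, against 0.265, 0.067, 1.03, 2.28 and 2.62 CPM in WT 1 to 5. The highest were Het 3 and Het 6, with 102 and 103 counts, Het 1 was also above every WT library, and Het 2, 4 and 5 lay within the WT range. The log2 fold change was 1.42 ± 0.83 (SE, adjusted p = 0.381 by edgeR's quasi-likelihood test), with a 95% interval of -0.37 to 3.21.

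Markers of thymocytes and T cells varied with Tcf7. The 12 markers (Cd3d, Cd3e, Cd3g, Cd4, Cd8a, Cd8b1, Lck, Rag1, Rag2, Dntt, Ptcra and Themis) summed to 9.53, 3.17, 41.0, 3.38, 2.49 and 27.4 CPM in Het 1 to 6, against 10.7, 2.81, 3.75, 9.19 and 12.9 CPM in WT 1 to 5. These markers were highest in Het 3 and Het 6, as was Tcf7, while WT 1 had a marker sum as high as Het 1 and low Tcf7. Counts for 11 of the 12 markers were found in each of Het 3, Het 6 and WT 5, and for 10 in WT 1 and WT 4. The T cell receptor subunit Cd3e had at most 4 counts in any library, while Cd3d reached 76, Cd8a 61 and Lck 228. Foxn1, the factor that defines thymic epithelium, had 0 counts. Of the other epithelial markers, Epcam, Cdh1 and Krt5 had at most 2, 1 and 10 counts, and Krt14 and Krt15 reached 39 and 245. Without Het 3 and Het 6, an alternative chosen after the values were seen, the log2 fold change of Tcf7 was 0.14 (adjusted p = 0.959). These libraries held the highest Tcf7, so leaving them out lowers its fold change by construction. With the mean log2 level of the 12 markers as a covariate the log2 fold change of Tcf7 was 0.63 (adjusted p = 0.586). None of the 5 markers that could be tested was called.

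**Figure D3:**
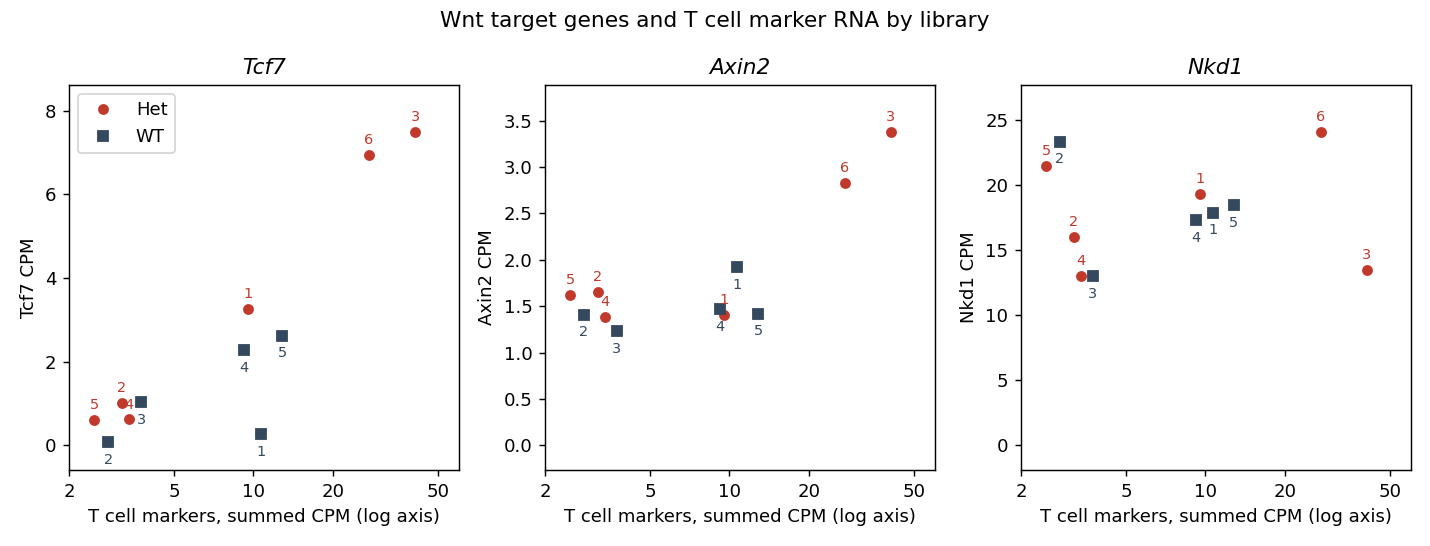
CPM of Tcf7, Axin2 and Nkd1 in each library against the summed CPM of 12 thymocyte and T cell markers (log axis), with Het as circles and WT as squares numbered by replicate. Het 3 and Het 6, at 41.0 and 27.4 CPM of marker RNA, have the highest Tcf7 and Axin2, while Nkd1 is highest in Het 6 and among the lowest in Het 3.

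Lef1 (ENSMUSG00000027985, chr3:131110471-131224356, plus strand), another TCF/LEF factor that is itself a Wnt target, had 2, 5, 2, 1, 0 and 5 counts in Het 1 to 6, against 0, 0, 2, 0 and 5 counts in WT 1 to 5. Summed over libraries this was 15 counts in Het, or 0.172 CPM (exact Poisson 95% interval 0.0962 to 0.283), and 7 counts in WT, or 0.0915 CPM (0.0368 to 0.189). The intervals overlap and cover counting error only. In the fit without a count filter its adjusted p was 0.734. An antisense gene, Gm43352, shares 1208 exon bases with it, and in unstranded libraries reads of overlapping genes cannot be told apart.

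The level of TCF/LEF RNA in the arch came mostly from the other 2 members of the family, which are not themselves standard readouts. Tcf7l2, the main partner of β-catenin in many adult tissues, was at 27.7 ± 1.38 CPM per kb in Het (SD, n = 6) and 26.6 ± 4.99 in WT (SD, n = 5), and its log2 fold change was 0.061 ± 0.11 (adjusted p = 0.814). Tcf7l1, which acts mainly as a repressor, was at 10.9 ± 2.62 CPM per kb in Het and 5.90 ± 1.29 in WT, and it rose by 0.89 ± 0.17 on the log2 scale (adjusted p = 0.00683). Its CPM was 32.5, 43.5, 34.8, 40.7, 43.4 and 61.6 in Het 1 to 6, against 20.5, 23.6, 25.1, 16.5 and 30.0 in WT 1 to 5, and the groups did not overlap. The groups also did not overlap for 4.61 percent of all genes tested, with 2.41 percent higher in every Het library. The call of Tcf7l1 did not hold with a sex score as a covariate (log2 fold change 0.69, adjusted p = 0.223) or without WT 1 and WT 2 (0.84, adjusted p = 0.0518). It was also lost among the Xist-positive libraries and with the dividing-cell score.

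Sp5 (ENSMUSG00000075304, chr2:70474923-70477729, plus strand), a zinc finger factor that is among the most direct Wnt targets in embryos, had 0 counts in all 11 libraries. A floor of 3 counts is 0.0344 CPM over the 6 Het libraries together and 0.0392 CPM over the 5 WT libraries together, and the exact Poisson 95% interval of 0 counts reaches 0.0423 CPM in Het and 0.0482 CPM in WT. Its promoter is shown because it holds letters of the TCF/LEF core motif, and that of Axin2 because this gene is a widely used readout. The windows run from 250 bases before to 50 after the start site, from RefSeq on GRCm38.p6, with capitals for a TCF/LEF core match. The forms searched on either strand were CTTTGAT and the variant that ends in a pair of adenines, CTTTGAA. Also searched were the form with paired thymines at its end, written CTTTGTT, and the form whose last letters are thymine and adenine, written CTTTGTA.
Sp5, chr2:70474673-70474972, plus strand: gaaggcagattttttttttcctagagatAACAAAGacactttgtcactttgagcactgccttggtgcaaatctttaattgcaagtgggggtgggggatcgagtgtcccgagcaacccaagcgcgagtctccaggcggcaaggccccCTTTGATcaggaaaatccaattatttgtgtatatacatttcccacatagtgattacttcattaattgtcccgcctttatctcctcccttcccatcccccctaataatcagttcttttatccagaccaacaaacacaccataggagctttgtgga
Axin2, chr11:108920099-108920398, plus strand: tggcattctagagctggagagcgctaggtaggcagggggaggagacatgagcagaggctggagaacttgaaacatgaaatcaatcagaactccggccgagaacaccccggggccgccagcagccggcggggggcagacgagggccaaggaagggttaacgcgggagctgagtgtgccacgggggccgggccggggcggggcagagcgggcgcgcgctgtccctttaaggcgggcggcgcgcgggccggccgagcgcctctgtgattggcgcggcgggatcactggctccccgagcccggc
The Sp5 window holds 2 matches, 1 of them on the minus strand, and the Axin2 window 0. Of 32851 promoter windows of 300 bases in the same table, 16.9 percent hold at least 1 match. Windows for 7 of the 10 targets were found; of the 12 windows of these 7 genes, only that of Sp5 and 1 of the 4 of Lef1 hold a match. A match is a description of the letters, and its absence says only that they are not in this window.

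The intracellular feedback genes showed no common direction. Axin2 (ENSMUSG00000000142, chr11:108920349-108950783, plus strand), an inducible scaffold of the complex that degrades β-catenin, was at 1.40, 1.66, 3.38, 1.38, 1.63 and 2.83 CPM in Het 1 to 6, against 1.92, 1.41, 1.23, 1.47 and 1.42 CPM in WT 1 to 5. Het 3 and Het 6 lay above every WT library and the other 4 Het libraries within the WT range. The log2 fold change was 0.46 ± 0.31 (SE, adjusted p = 0.463 by edgeR's quasi-likelihood test), with a 95% interval of -0.21 to 1.12. These values rest on 18 to 46 counts per library. Without Het 3 and Het 6, its 2 highest libraries, left out after their values were seen, the log2 fold change was 0.033 (adjusted p = 0.975). Leaving out the highest Het libraries lowers it by construction. Among the Xist-positive libraries, 2 Het against 5 WT, the log2 fold change was 0.046 (adjusted p = 0.987). Het 3 and Het 6 are the libraries with the highest T cell marker sums given above; with that score as a covariate the log2 fold change of Axin2 was 0.30 (adjusted p = 0.629). Other alternatives gave a larger one: 0.58 (adjusted p = 0.984) with the dividing-cell score and 0.74 (adjusted p = 0.209, unadjusted p = 0.0208) with an unexplained number in the column names, which Het 3 and Het 6 share with 4 WT libraries. An antisense gene, Gm11670, shares 209 exon bases with Axin2 and had 2 counts over all libraries. Axin1, the constitutive paralog, was at 3.71 ± 0.536 CPM per kb in Het and 3.50 ± 0.435 in WT, well above Axin2, with a log2 fold change of 0.086 ± 0.14 (adjusted p = 0.793).

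Nkd1 (ENSMUSG00000031661, chr8:88521354-88594884, plus strand) and Nkd2 (ENSMUSG00000021567, chr13:73818534-73847631, minus strand) encode the Naked cuticle proteins, which bind Dishevelled and dampen the signal. Nkd1 was at 19.3, 16.0, 13.4, 12.9995, 21.5 and 24.1 CPM in Het 1 to 6, against 17.9, 23.3, 12.99, 17.3 and 18.5 CPM in WT 1 to 5. The groups covered nearly the same range. Its log2 fold change was -0.0044 ± 0.18 (SE, adjusted p = 0.994 by edgeR's quasi-likelihood test), with a 95% interval of -0.39 to 0.38, or 0.764-fold to 1.30-fold. These values rest on 169 to 396 counts per library.

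Nkd2 was at 1.77, 1.30, 0.955, 1.31, 0.867 and 1.48 CPM in Het 1 to 6, against 0.861, 1.94, 2.21, 2.42 and 2.69 CPM in WT 1 to 5. WT 2 to 5 lay above every Het library and WT 1 below every one, so the groups overlap through WT 1 alone. The log2 fold change was -0.66 ± 0.33 (SE, adjusted p = 0.285), with a 95% interval of -1.36 to 0.034, and without WT 1 it was -0.85 (adjusted p = 0.136). These values rest on 13 to 43 counts per library.

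The surface and secreted feedback genes held both the most abundant target and 2 that were almost absent. Znrf3 (ENSMUSG00000041961, chr11:5276324-5444847, minus strand), a transmembrane ubiquitin ligase that removes Frizzled receptors from the cell surface, was at 425, 283, 335, 417, 407 and 395 CPM in Het 1 to 6, against 454, 532, 442, 443 and 449 CPM in WT 1 to 5. Every Het library lay below every WT library. Znrf3 was the 1 target of the 6 whose groups did not overlap, where 4.61 percent of all genes tested did not overlap with 2.2 percent lower and 2.41 percent higher in every Het library. The log2 fold change was -0.30 ± 0.10 (SE, adjusted p = 0.116 by edgeR's quasi-likelihood test; unadjusted p = 0.0113), with a 95% interval of -0.52 to -0.078, or 0.812-fold (0.696-fold to 0.947-fold). Over the alternatives the adjusted p ran from 0.0788 with DESeq2 to 0.981, and the log2 fold change from -0.41 to -0.14, with no change of sign. The smallest size was found with the endothelial marker score as a covariate (-0.14, adjusted p = 0.574) and the largest with the sex score (-0.41, adjusted p = 0.293). The highest adjusted p, 0.981, came with the dividing-cell score (log2 fold change -0.20). No annotated gene overlaps Znrf3.

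Rnf43 (ENSMUSG00000034177, chr11:87662722-87735539, plus strand), the second Frizzled-removing ligase, had 2 counts in Het 4, 4 counts in Het 5 and 2 counts in WT 3, and 0 in the other 8 libraries. Over groups this was 0.0687 CPM in Het (exact Poisson 95% interval 0.0252 to 0.15) and 0.0261 CPM in WT (0.00317 to 0.0944). Notum (ENSMUSG00000042988, chr11:120653788-120661175, minus strand), a secreted enzyme that removes the lipid of Wnt ligands, had 1 count in Het 3 and 1 each in WT 3 and WT 4. In the fit without a count filter the adjusted p was 0.665 for Rnf43 and 0.789 for Notum. With at most 4 counts of Rnf43 and 1 count of Notum in any library, these values say little about a difference in either. Antisense genes share 708 and 210 exon bases with Notum.

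Lgr5 (ENSMUSG00000020140, chr10:115450311-115587780, minus strand), a receptor for R-spondins and a marker of Wnt-dependent stem cells in gut and skin, was at 1.55, 1.66, 1.32, 1.54, 0.488 and 1.89 CPM in Het 1 to 6, against 2.25, 3.42, 2.93, 1.32 and 1.27 CPM in WT 1 to 5. WT 1 to 3 lay above every Het library and WT 4 and WT 5 within the Het range. The log2 fold change was -0.68 ± 0.37 (SE, adjusted p = 0.33 by edgeR's quasi-likelihood test), with a 95% interval of -1.46 to 0.096. With the dividing-cell score as a covariate the log2 fold change was 0.16 ± 0.68 (SE, adjusted p = 0.995), a wider error than without it. All 6 markers of dividing cells rose in Het, to a sum of 175 to 257 CPM, against 80.9 to 192 CPM in WT. The highest WT sum was that of WT 4, with WT 1 next at 101 CPM. The related R-spondin receptors were far more abundant. Lgr4 was at 40.7 ± 3.83 CPM per kb in Het and 42.6 ± 5.16 in WT (log2 fold change -0.066 ± 0.095, adjusted p = 0.772), and Lgr6 at 23.6 ± 3.90 CPM per kb in Het and 28.7 ± 2.74 in WT (log2 fold change -0.28 ± 0.11, adjusted p = 0.152).

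The genes most like 2 targets were sought among 13905 genes with a mean of at least 1 CPM, by the correlation of log2 levels, as deviations from the group mean, over the 11 libraries. For Axin2 these were Wdcp (Pearson r 0.902, Spearman rho 0.9), Trim7 (0.88 and 0.836) and the T cell co-receptor Cd8a (0.858 and 0.736). For Znrf3 they were Gm43288 (0.944 and 0.955), the RNA exonuclease Xrn1 (0.926 and 0.945) and Dock11 (0.899 and 0.909). The values compared share libraries and depth, and the genes were picked as the highest of many, so the correlations are descriptions.

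Of 114 listed ligands, receptors, inhibitors, signalling components and wider targets, 85 could be tested and 11 were called, 7 higher and 4 lower in Het, with a median log2 fold change of 0.155. Over all genes tested, 5.03 percent were called, 2.65 percent higher and 2.38 percent lower, with a median of -0.0046. Of these 11, 4 were no longer called when some single library was left out, 8 with the sex score and 10 with the dividing-cell score, whose markers are higher in Het as given above. Many lost calls came with a fold change of similar size and a larger SE. With the dividing-cell score the log2 fold change of Fzd1 was 0.71 ± 0.21, that of Sfrp1 0.74 ± 0.23 and that of Tcf7l1 0.94 ± 0.37, while those of Frzb (-0.43 ± 0.25) and Ccn5 (0.60 ± 0.37) were smaller. None of the 8 tested ligand and export genes and none of the 6 tested genes of R-spondins, their receptors and Norrin was called by edgeR's quasi-likelihood test. Rspo3, an R-spondin of vessel walls that shields Frizzled receptors from Znrf3 and Rnf43, was at 3.47 ± 1.30 CPM in Het and 1.64 ± 0.930 CPM in WT, with a log2 fold change of 1.06 ± 0.38 (adjusted p = 0.122).

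Among 13 tested receptors and co-receptors, 2 rose and none fell, where 2.65 percent of all genes tested were higher and 2.38 percent lower. Fzd1, a Frizzled receptor, was at 21.6, 23.9, 29.0, 22.8, 24.7 and 20.8 CPM in Het 1 to 6, against 17.7, 16.1, 13.7, 15.1 and 15.2 CPM in WT 1 to 5, without overlap. Of all genes tested, 4.61 percent did not overlap, with 2.41 percent higher in every Het library. Fzd1 rose by 0.61 ± 0.12 on the log2 scale (adjusted p = 0.00596 by edgeR's quasi-likelihood test), and with the sex score the log2 fold change was 0.58 ± 0.16 (adjusted p = 0.139). Fzd7, another Frizzled receptor, rose by 0.61 ± 0.17 (adjusted p = 0.0465), a call that was lost without any single library but WT 2, with the highest adjusted p, 0.106, without Het 5. The co-receptor Lrp5 was at 3.66 ± 0.343 CPM in Het and 2.21 ± 0.57 CPM in WT (log2 fold change 0.73 ± 0.22, adjusted p = 0.073), and it passed with DESeq2 (adjusted p = 0.027) and without WT 4 (adjusted p = 0.0345). For its close relative Lrp6 the log2 fold change was 0.13 ± 0.11 (adjusted p = 0.567).

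The secreted and surface inhibitors changed in both directions, with 3 of 12 tested higher and 3 lower, where 2.65 percent of all genes tested were higher and 2.38 percent lower. Wif1, which binds Wnt ligands, was at 12.3 ± 2.11 CPM in Het and 48.3 ± 9.80 CPM in WT and Frzb, a secreted Frizzled-related protein, at 18.1 ± 2.83 CPM in Het and 29.6 ± 7.03 CPM in WT, while Sost, the Lrp5/6 antagonist sclerostin, was at 63.6 ± 10.9 CPM in Het and 24.3 ± 4.23 CPM in WT and Sfrp1, another Frizzled-related protein, at 118 ± 14.3 CPM in Het and 68.5 ± 11.7 CPM in WT. The adjusted p of these 4 was 3.75e-06, 0.012, 3.63e-05 and 9.48e-04. With the sex score Sfrp1 (log2 fold change 0.67, against 0.79 without it; adjusted p = 0.0602) and Frzb (-0.50, against -0.71; adjusted p = 0.365) did not pass. Frzb also did not pass without WT 1 and WT 2 (-0.54, adjusted p = 0.0591) or without Het 3 and Het 6 (-0.71, adjusted p = 0.0602).

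None of 17 tested genes of the destruction complex and Dishevelled was called by edgeR's quasi-likelihood test, and of 14 tested genes for β-catenin and its nuclear partners only Tcf7l1 was. The share called over all genes tested was 5.03 percent. Ctnnb1, which encodes β-catenin, was at 147 ± 2.54 CPM in Het and 152 ± 13.2 CPM in WT, with a log2 fold change of -0.056 ± 0.073 (adjusted p = 0.737). Its protein is controlled by degradation, which RNA does not show. For Apc, the scaffold of the complex, the log2 fold change was 0.35 ± 0.14 (adjusted p = 0.195). The kinase Gsk3b was at 934 ± 136 CPM in Het and 688 ± 182 CPM in WT, with a log2 fold change of 0.44 ± 0.16 (adjusted p = 0.122), and it passed without WT 5 (adjusted p = 0.049).

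Of 15 tested genes from a wider set of reported β-catenin targets, which other pathways also control, 1 rose and 1 fell. The shares over all genes tested were 2.65 percent higher and 2.38 percent lower. Ccn5, a matricellular protein, was at 18.6 ± 4.77 CPM in Het and 10.3 ± 3.33 CPM in WT (log2 fold change 0.85 ± 0.22, adjusted p = 0.0326); the call was lost without Het 1, Het 2, Het 5, WT 1, WT 3 or WT 5, with the highest adjusted p, 0.0756, without WT 1. Sox9, a transcription factor of cartilage and progenitor cells, was at 2.94 ± 1.30 CPM in Het and 6.56 ± 1.79 CPM in WT (log2 fold change -1.16 ± 0.29, adjusted p = 0.027); this call was lost without Het 1, Het 2, Het 5, Het 6, WT 1 or WT 2, with the highest adjusted p, 0.077, without WT 2. Ccnd1, the G1 cyclin D1, and Myc, a growth regulator, showed changes on the log2 scale of -0.19 ± 0.14 (adjusted p = 0.488) and 0.52 ± 0.19 (adjusted p = 0.126).

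**Figure D4:**
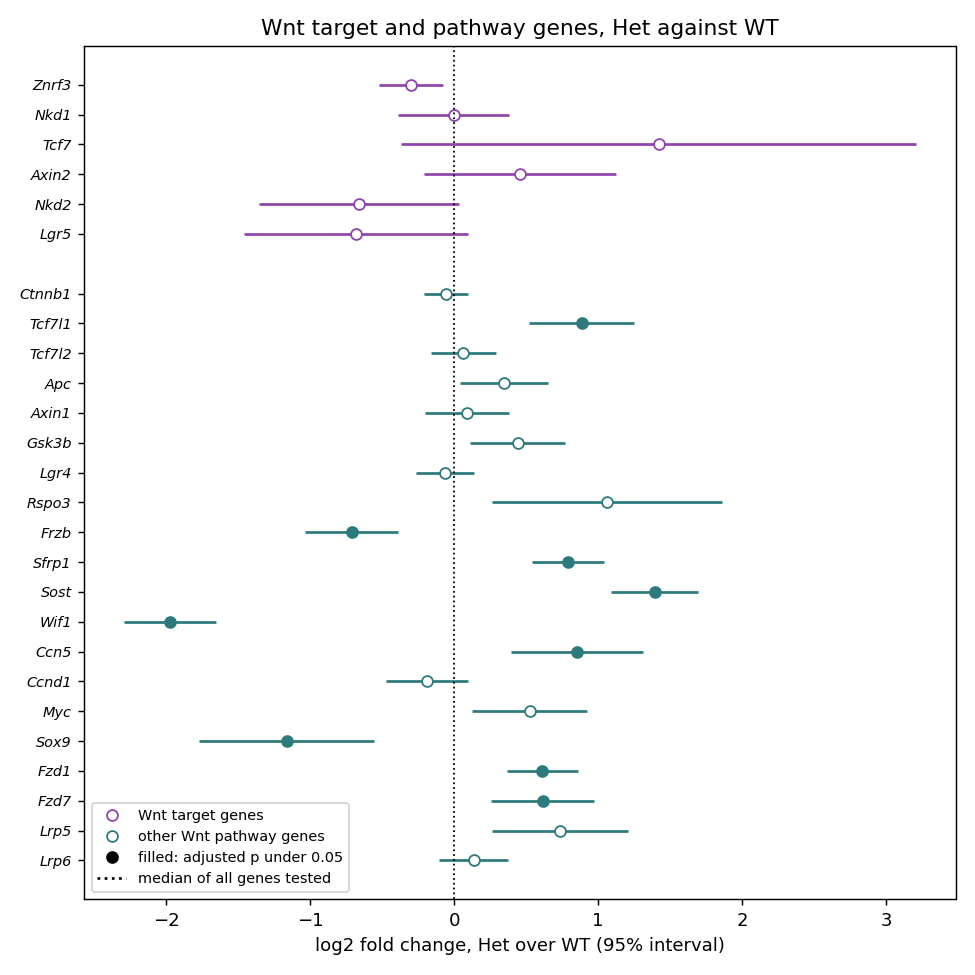
Log2 fold change of Het over WT with its 95% interval from edgeR's quasi-likelihood fit for the 6 tested Wnt target genes (upper block) and the named genes of the wider pathway (lower block); filled points passed an adjusted p of 0.05 and the dotted line is the median of all genes tested. No target point is filled, and the intervals of Tcf7, Axin2, Nkd2 and Lgr5 are wider than that of Znrf3.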

How the data were processed

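Per the labels' protocols, unstranded Nextera XT libraries of total RNA were sequenced as 75-nt single reads in 2 runs, which the files do not separate. Per the submitters' processing notes, STAR 2.5.2a and the GRCm38 build were used, along with limma, edgeR and DESeq2; which program counted the reads, and on which annotation, is not given in the sources used here. Whole-number counts per gene and library were deposited; 24 spike-in and transgene rows were left out (at most 8.06e-05 percent of a library). The deposited signal, named TMM-normalized CPM by the authors, holds 19629 rows and served only for alternatives; its rows are those with at least 6 counts in some library.

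Genes were kept by filterByExpr (minimum count 10, minimum total 15), scaled by TMM and fitted in edgeR 4.0.16 under R 4.3.3 (robust quasi-likelihood, genotype as the single term, 11 libraries); p-values were adjusted after Benjamini-Hochberg over all 14757 genes. CPM in the text use these factors. The SE is the log2 fold change divided by the square root of F, and 95% intervals use the fit's t quantile. Gene positions and exon lengths come from GENCODE M21 (GRCm38, positions counted from 1). The 10 targets and all lists were chosen with earlier results of these data known. Named were all targets, a core set, the 4 smallest p per pathway list past the threshold at a mean of 1 CPM or more, and the 3 genes most like Axin2 and Znrf3; Lgr6 was added after its values were seen. Aes stands for Tle5. No 2 libraries of the same group agreed within sampling noise.

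Alternatives were RLE and upper-quartile scaling, 2 other filters, DESeq2 1.42.0, limma 3.58.1 (voom, and trend with pseudocounts of 1 and 0.5), a replicate block, covariates (sex score, T cell, dividing-cell and endothelial marker scores, an unexplained number 6 or 7 in the column names), Xist-positive libraries alone (at least 100 counts), WT 1 and WT 2 left out, each library left out, and, chosen after seeing the data, Het 3 and Het 6 left out. The sex score subtracts log2 Xist from the mean log2 level of 4 Y-linked genes. The test was first tested on simulated data. Intervals and floors from counts cover counting error only.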

Additional observations from a re-analysis of the deposited data

Results flagged for a closer look

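In 4 of 54 groups of library values (27 named genes, 2 groups each), 1 library stood far from the others of its group; chance gives about 1 in 20, or 2.7. Znrf3 was at 531.8 CPM in WT 2, with the next WT library at 454.4 CPM; without WT 2 its log2 fold change was -0.25 (adjusted p = 0.269). Gsk3b was at 1196 CPM in Het 6, with the next Het library at 962.9 CPM. Lgr4 was at 196.6 CPM in Het 2, with the next at 241.6 CPM. Tgfbr2 was at 48.81 CPM in WT 5, with the next WT library at 41.0 CPM.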

How the results depend on the processing

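The 6 tested targets were called in 0 of the 28 alternatives. Axin2, Tcf7, Nkd2 and Znrf3 kept their sign in all of them; Nkd1, near 0, changed sign in 11 and Lgr5 in 1. Counts of calls moved more. Over all genes, 742 were called in the analysis as reported, against 1297 with DESeq2, 332 with the replicate block, 122 with the sex score, 34 in Xist-positive libraries, 16 with the dividing-cell score, 415 with the column-name number, 327 with the endothelial score, 432 without WT 1 and WT 2 and 411 without Het 3 and Het 6 (chosen after seeing the data); leaving out 1 library gave 458 (without WT 2) to 853. Of the pathway genes, 11 were called as reported, against 7 with the block, 3 with the sex score, 2 in Xist-positive libraries, 1 with the dividing-cell score, 6 with the column-name number, 7 with the endothelial score, 6 without WT 1 and WT 2 and 6 without Het 3 and Het 6; leaving out 1 library gave 7 to 12. The cause was not tested. No pairing by replicate number was seen: correlations of same-numbered libraries were -0.25 to 0.049 over 5 pairs. The library of the same number was the best match for 2 Het and 1 WT libraries. So few pairs cannot exclude a pairing, and the block leaves out Het 6. The 4 targets left untested had at most 5 counts in any library.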
